A study of Mus musculus with 12 samples.

Results

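Collagens and laminins are the proteins from which the extracellular matrix of the brain's vessels, meninges and choroid plexus is built, and their genes were followed here through the ventral hippocampus of 12 mice. Members were all gene symbols in the deposited tables with a collagen chain name (Col, a type number, a and a chain number) or a laminin chain name (Lama, Lamb or Lamc and a number), with 10 or more counts in at least 3 of the 12 libraries. Of 23183 gene symbols, 56 matched by name and 51 reached the minimum: 39 collagen genes, 11 laminin genes and Col4a3bp, a ceramide transfer protein that matches by name alone and is neither. The 5 symbols below it were Col10a1, Col28a1, Col2a1, Col6a6 and Col9a1. Nearest to the threshold, Col24a1 reached 10 counts in 3 libraries, while Col28a1 and Col2a1 reached it in 2 libraries, with highest counts of 13 and 30. The members were set in classes: 20 collagens of fibrils and of the meninges, 20 basement membrane genes, and 10 neuronal, transmembrane and minor collagens.

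All animals were wild-type male C57BL/6J mice, 8 weeks old when naive, with 3 mice in each of 4 groups. Controls (C) were untreated. Stress-susceptible mice (SS) were held in a tube for 2 hours a day over 14 days. Animals of the SES and SER groups were susceptible mice that had the same restraint and then free use of a running wheel, and they differ in whether their behaviour improved on the wheel (SES, effective response) or did not (SER, ineffective response). The sample titles give 14 days of running and the protocol gives 4 weeks. Total RNA was sequenced. Library totals ran from 9323607 to 15707516 counts, which makes 3 counts, the most that a count of 0 allows, worth 0.189 to 0.327 CPM (counts scaled to library size, here with TMM factors). That limit covers counting error only. Hippocampal neuron markers such as Slc17a7 and Prox1 summed to between 3657 and 4704 CPM in the 12 libraries, with none at 0. The p-values measure the spread between these mice, and in tissue RNA fewer cells of a type and less RNA per cell cannot be told apart.

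Collagen chains wind in threes into a triple helix, which needs a glycine in every triplet of residues. Fibrillar collagens (types I, III, V, XI, XXIV and XXVII) form the ropes of the meninges and vessel walls, with type VI as a beaded filament around them, and laminin trimers and type IV collagen form the sheet-like basement membrane beneath endothelium, around pericytes and under the glial endfeet. Several collagens are made by neurons instead: type XIX by interneurons, where it is known for its role in hippocampal synapse formation, and type XXV as a transmembrane protein of neurons, first found in amyloid plaques.

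The glycine repeat can be read in the coding sequence. The stretches below hold 10 Gly-X-Y triplets from the middle of the longest unbroken run in 3 members with different patterns across these mice. The members are Col6a1, the highest of its class by CPM in SS mice 19 and 21, Col8a1, which was highest where choroid plexus RNA was high, and the neuronal Col25a1. The stretches are taken from the RefSeq-matched transcripts of GENCODE M21 (mouse build GRCm38), and capitals mark the glycine codons.

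Col6a1: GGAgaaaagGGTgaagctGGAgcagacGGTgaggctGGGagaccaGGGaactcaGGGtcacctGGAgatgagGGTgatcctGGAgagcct

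Col8a1: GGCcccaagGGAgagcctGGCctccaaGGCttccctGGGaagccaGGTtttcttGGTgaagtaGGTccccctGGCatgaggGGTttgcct

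Col25a1: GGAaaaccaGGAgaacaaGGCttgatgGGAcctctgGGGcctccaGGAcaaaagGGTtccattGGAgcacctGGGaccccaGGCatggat

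The even spacing of the glycine codons follows from how the runs were chosen. The 3 stretches are 60.00%, 62.22% and 57.78% G or C. Among the collagen members the longest unbroken run of such triplets was 23 in Col26a1 and 344 in Col3a1. In the laminins and Col4a3bp the longest was 2 or 3. The members' transcripts were rich in G and C and long: over the 49 members tested the median was 55.67% G or C and 6046 bases, against 50.33% and 3095 bases over all genes tested.

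The type IV chain genes Col4a1 and Col4a2 lie head to head on chromosome 8. Their start-site windows, 250 bases before to 50 after each start (RefSeq, GRCm38.p6), overlap by 78 bases, shown in capitals in the Col4a1 window (chr8:11312777-11313076, minus strand). It is printed because the levels of these 2 genes followed the same mice.

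Col4a1: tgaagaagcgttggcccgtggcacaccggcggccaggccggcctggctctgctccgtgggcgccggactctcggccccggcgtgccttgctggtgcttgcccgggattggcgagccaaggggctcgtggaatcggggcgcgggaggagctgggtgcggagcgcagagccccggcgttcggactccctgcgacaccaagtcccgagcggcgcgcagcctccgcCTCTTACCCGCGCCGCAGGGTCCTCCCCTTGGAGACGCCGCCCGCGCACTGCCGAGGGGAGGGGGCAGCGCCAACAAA

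The window was 74.00% G or C, and that of Col4a2 (chr8:11312555-11312854, plus strand) 73.67%, against a median of 52.67% over 27025 windows of that length. On both strands the motif CCAAT was found once in each window and GGGCGG once in that of Col4a1 and 3 times in that of Col4a2. Of all windows, 37.9% held CCAAT and 35.9% held GGGCGG. A match is a description of letters only.

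Levels between genes are compared per kilobase of transcript, as the mean over 12 mice of CPM per kilobase with its SD. Among the collagens Col25a1 was highest (9.10 ± 1.56), followed by Col9a3 (7.23 ± 5.73), a cartilage collagen of the FACIT type. Then came Lamb1 (5.09 ± 0.894), a beta chain of the vascular laminins, Col6a1 (4.82 ± 5.45), Col4a2 (4.50 ± 3.20), Col19a1 (4.42 ± 3.25), Col4a1 (4.08 ± 2.71), Lamb2 (4.07 ± 0.806) and Lamc1 (3.28 ± 0.601). Neighbours in this order lie within their SD of each other. The chains of classical fibrils were lower, with Col1a2 at 1.41 ± 0.310, Col1a1 at 0.647 ± 0.119 and Col3a1 at 0.208 ± 0.0860. Among laminin alpha chains, Lama2 (1.44 ± 0.243), made around vessels and at the glial border, was above Lama5 (0.677 ± 0.280), Lama4 (0.477 ± 0.118) and Lama1 (0.202 ± 0.0557). The SD was small beside the mean for Col25a1, Lamb1 and Lama2, though Col25a1 still ran from 39.8 to 77.5 CPM between mice. For Col4a1 it was larger beside the mean, and for Col6a1 it was above the mean.

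**Figure D1:**
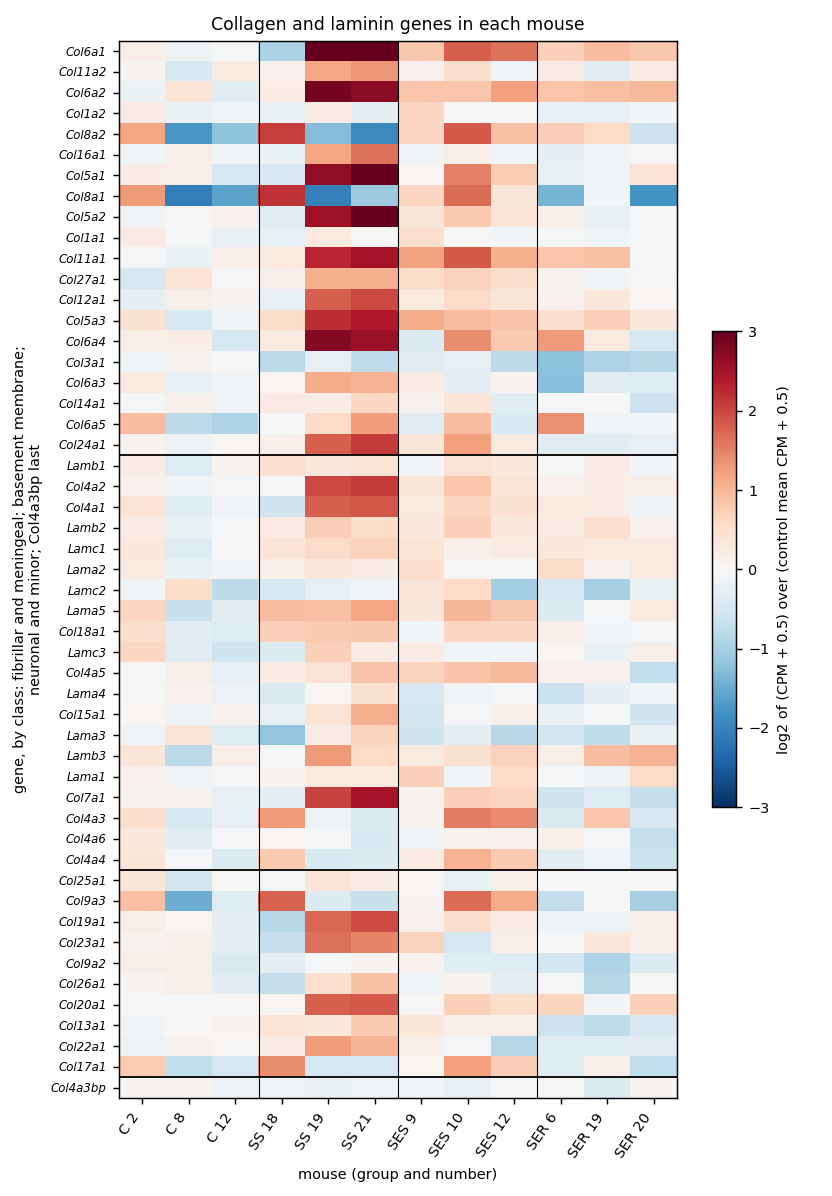
Level of each of the 51 members (rows, by class) in each of the 12 mice (columns, by group), as log2 of CPM plus 0.5 over the control mean plus 0.5. SS mice 19 and 21 form a red block across 23 collagens, while SS mouse 18 does not share it, and Col8a1, Col8a2 and Col9a3 follow another order of mice.

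Stress without running was compared first. Against C, 14 of the 49 members tested were higher in SS and 0 were lower (28.6% of members). Over all 14541 genes tested, 5.21% were called higher and 9.83% in either direction. DESeq2 called 17 members higher and 0 lower, beside 7.94% of all genes higher. Calls are at an adjusted p under 0.05 in edgeR's quasi-likelihood F test with Benjamini-Hochberg adjustment over all genes tested, in 1 fit of the 12 mice. By class, 9 of 19 fibrillar and meningeal collagens, 4 of 19 basement membrane genes and 1 of 10 neuronal and minor collagens were called. The median log2 fold change was 0.90 over the members and 0.02 over all genes. SS mice 19 and 21 were the 2 highest of the 12 libraries in 24 of the 49 members, beside 14.2% of all genes tested. Every called member except Lama5 was among those 24. Without these 2 mice SS mouse 18 stands alone in its group, and the median log2 fold change over the members was 0.09. Leaving out C mouse 8, SS mouse 19 or SS mouse 21 singly left 0 members and 0% of all genes called. Leaving out C mouse 12 left 0 members, beside 0.528% of all genes. Leaving out C mouse 2 left 6 members higher, beside 2.53% of all genes, and leaving out SS mouse 18 gave 23, beside 13.6%. Of the 14 called, Col7a1, Col20a1 and Col24a1 had under 10 counts in every control, and Col7a1 and Col24a1 are members only through libraries where they were high, so their calls are no support.

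Type VI collagen, the filament-forming collagen of the meninges and of perivascular fibroblasts, held the largest fitted fold change of all members, that of Col6a1. This gene (chromosome 10, 76708792 to 76726044, GRCm38.p6) was at 6.83, 5.28 and 5.67 CPM in C mice 2, 8 and 12, while SS mice 18, 19 and 21 had 2.83, 70.1 and 61.9 CPM. SES mice 9, 10 and 12 had 10.8, 21.8 and 19.3 CPM and SER mice 6, 19 and 20 had 10.1, 11.8 and 10.8 CPM. SS mouse 18 was thus the lowest of all 12 and the other 2 SS mice the highest, so SS and C overlap, while all runners of both kinds lay above every control. The log2 fold change in SS was 2.93 ± 0.71 (SE, adjusted p = 0.0285). Its partner chain Col6a2 was at 2.43, 4.00 and 2.15 CPM in C and 3.44, 23.9 and 21.4 CPM in SS (log2 fold change 2.50 ± 0.51, adjusted p = 0.0223). Col6a4, a longer chain of the same type, rose as well (2.77 ± 0.78, adjusted p = 0.0428). Col6a3, the chain that completes the classical trimer, was not called (1.03 ± 0.43, adjusted p = 0.131), and neither was Col6a5 (1.19 ± 0.94, adjusted p = 0.447). Mouse by mouse, the ratio of Col6a1 to Col6a2 counts ran from 0.824 to 3.98.

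The minor fibril collagens that sit inside and regulate fibrils showed the same mice. Col5a1, the main type V chain, was at 4.40, 4.28 and 2.41 CPM in C and 2.53, 26.2 and 36.0 CPM in SS, and rose by a log2 fold change of 2.55 ± 0.67 (adjusted p = 0.0346). Col5a2 gave 1.96, 2.14 and 2.41 CPM in C and 1.62, 15.1 and 20.7 CPM in SS (2.52 ± 0.59, adjusted p = 0.0268). In both genes SS mouse 18 lay among or below the controls. Col5a3 was at 1.50, 0.500 and 0.859 CPM in C and 1.62, 6.27 and 7.22 CPM in SS (2.44 ± 0.50, adjusted p = 0.0223), and Col11a1, the type XI chain of thin fibrils, at 1.68, 1.43 and 2.06 CPM in C and 2.22, 10.4 and 12.0 CPM in SS (2.26 ± 0.51, adjusted p = 0.0248). These 2 did not overlap between the groups, though SS mouse 18 lay close above the highest control. Col11a2, the other abundant type XI chain, was at 9.82, 6.57 and 11.2 CPM in C and 10.1, 21.3 and 23.9 CPM in SS and missed the threshold (1.02 ± 0.30, adjusted p = 0.0503). Col12a1, which binds fibril surfaces, rose by 1.59 ± 0.43 (adjusted p = 0.0377) and Col24a1, a developmental fibril collagen, by 2.87 ± 0.73 (adjusted p = 0.0321). The fitted fold of Col24a1 depends on the prior count, since C mice had 2 or 3 counts each: the ratio of summed counts (60 in SS, 8 in C) was 8.06 with an exact 95% counting interval of 3.84 to 19.5, which leaves out the spread between mice.

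The principal collagens of fibrils were not called in SS. Col1a1, which with Col1a2 makes type I collagen, was at 4.49, 3.57 and 3.09 CPM in C and 3.03, 4.63 and 3.82 CPM in SS, a log2 fold change of 0.05 ± 0.25 (adjusted p = 0.921). Col1a2 was at 9.07, 6.49 and 7.04 CPM in C and 6.47, 8.94 and 6.11 CPM in SS (-0.06 ± 0.23, adjusted p = 0.888). The groups overlap in both genes, and SS mice 19 and 21 are not the 2 highest libraries in either. Col3a1, the chain of type III fibrils in vessel walls, lies next to Col5a2 on chromosome 1 (45311538 to 45349706, beside 45374331 to 45503282, GRCm38.p6). It was at 1.59, 1.93 and 1.80 CPM in C and 0.809, 1.41 and 0.849 CPM in SS. It was the 1 member whose SS mice all lay below C, without a call (-0.78 ± 0.35, adjusted p = 0.167).

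**Figure D2:**
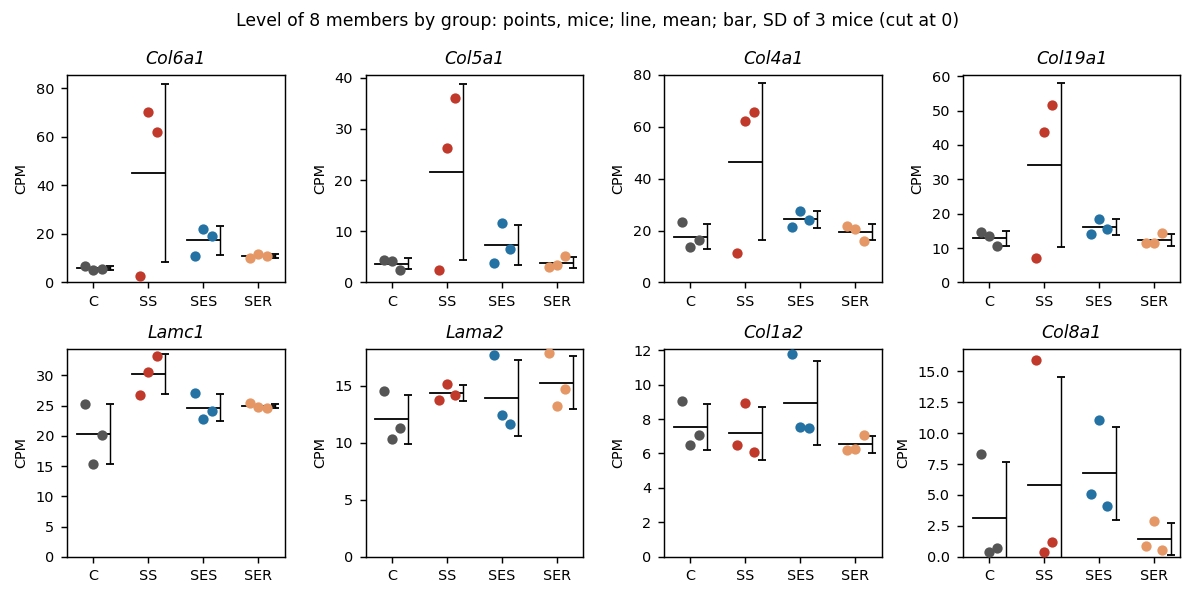
CPM of 8 members in each mouse (points) by group, with the mean (line) and SD (bar) of 3 mice, on axes that start at 0. Col6a1, Col5a1, Col4a1 and Col19a1 have 2 SS mice far above the rest and SS mouse 18 among or below the controls, the SS mice all lie above C for Lamc1, and Col1a2 and Lama2 overlap between SS and C.

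In the basement membrane, the alpha 2 chain of type IV collagen rose. Col4a2 was at 19.0, 16.1 and 16.6 CPM in C, 16.5, 69.6 and 75.0 CPM in SS, 22.4, 31.2 and 22.7 CPM in SES, and 18.8, 20.3 and 20.0 CPM in SER. Col4a1 was at 23.1, 13.6 and 16.2 CPM in C, 11.5, 62.3 and 65.6 CPM in SS, 21.2, 27.6 and 24.2 CPM in SES, and 21.7, 20.7 and 15.8 CPM in SER. The 2 chains thus moved with the same mice, SS mouse 18 again apart from its group. The call was made for Col4a2 (1.65 ± 0.38, adjusted p = 0.0266) and missed for Col4a1 (1.41 ± 0.44, adjusted p = 0.0579). Over the 12 mice their levels spanned 4.65-fold and 5.69-fold, while the ratio of Col4a1 to Col4a2 counts stayed between 0.699 and 1.22. For the type I chains the Col1a1 to Col1a2 count ratio ran from 0.439 to 0.625, over level ranges of 1.81-fold and 1.93-fold.

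Other type IV chains, known from specialised membranes such as those of the kidney, were not called in SS: Col4a3 had a log2 fold change of 0.76 ± 0.92, Col4a4 of 0.11 ± 0.63 and Col4a5 of 0.61 ± 0.30. Col7a1, the anchoring fibril collagen of skin, rose (2.57 ± 0.69, adjusted p = 0.037) from 0.344 to 0.571 CPM in C to 0.303, 3.53 and 5.01 CPM in SS. Col18a1, the source of endostatin and a collagen with heparan sulfate chains, was at 3.83, 1.86 and 1.80 CPM in C and 4.45, 4.71 and 4.75 CPM in SS, which do not overlap, and it was not called (0.90 ± 0.32, adjusted p = 0.0832). Its highest control, C mouse 2, and SS mouse 18 were high in Ttr, a choroid plexus marker (3546 and 5095 CPM).

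Of the laminins, Lamc1 and Lama5 were called. Lamc1, the gamma chain of most laminin trimers, was at 25.3, 15.3 and 20.1 CPM in C and at 26.8, 30.6 and 33.3 CPM in SS. All 3 SS mice lay above all 3 controls, SS mouse 18 just above C mouse 2, and the log2 fold change was 0.58 ± 0.16 (adjusted p = 0.039). Lama5, the alpha chain of mature endothelial laminin, was at 8.60, 3.14 and 4.21 CPM in C and at 10.6, 10.1 and 12.7 CPM in SS (1.08 ± 0.32, adjusted p = 0.0492). There SS mouse 18 was the middle of its group. With SS mouse 18 as the lone SS animal the log2 fold changes were 0.41 for Lamc1 and 1.01 for Lama5, with adjusted p-values of 0.422 and 0.326, on the assumption that it varies like the other groups.

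Lamb1 (0.42 ± 0.17, adjusted p = 0.122) and Lamb2 (0.54 ± 0.17, adjusted p = 0.0621) also had every SS mouse above every control without a call. Lamb1 was at 30.1, 19.6 and 27.9 CPM in C and 36.7, 32.5 and 34.7 CPM in SS. In Lamc1, Lama5, Lamb1 and Lamb2 SS mouse 18 lay above the controls with the rest of its group. In Lama3 it was at 1.72 CPM, the lowest of the 12 mice, beside 5.49 and 7.56 CPM in SS mice 19 and 21, and in Lama4, Lamb3 and Lamc3 it was the lowest SS mouse. Lama2 (0.26 ± 0.19), Lama4 (0.09 ± 0.29), Lama1 (0.29 ± 0.34) and Lamc3 (0.31 ± 0.37) overlapped between the groups. In all, 13 members had SS mice wholly above C and 1 wholly below, where 12.7% and 14.2% of all genes tested did so. The 13 include Col13a1 and Col24a1, which are members only through SS and SES libraries. Of the 11 laminins, only Lamc1 had SS mice 19 and 21 as the 2 highest libraries, against 23 of the 37 collagens tested.

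**Figure D3:**
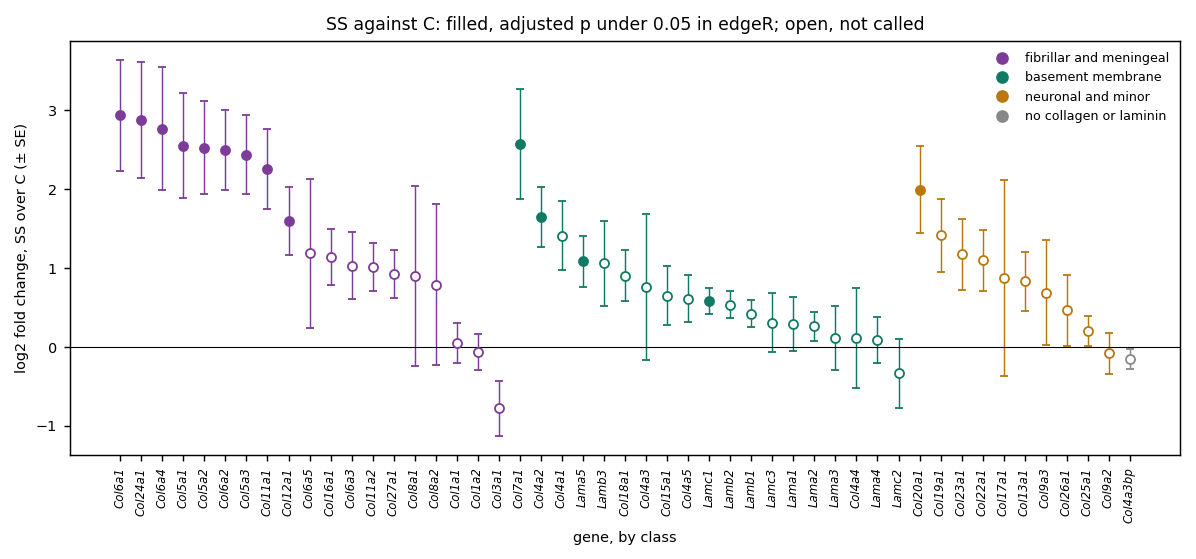
Log2 fold change of SS over C (points) with its SE (bars) for the 49 members tested, by class and in falling order. Filled points passed an adjusted p of 0.05 in edgeR and are all above 0, and the type I chains lie near 0 while Col3a1 lies below it.

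Among neuronal collagens only Col20a1, a minor collagen, was called (2.00 ± 0.55, adjusted p = 0.0393), at 0.655, 0.642 and 0.687 CPM in C and 0.708, 3.53 and 3.65 CPM in SS. Col19a1 was at 14.6, 13.5 and 10.5 CPM in C, 6.98, 43.8 and 51.6 CPM in SS, 14.1, 18.6 and 15.4 CPM in SES and 11.4, 11.5 and 14.3 CPM in SER. It had the same 2 high mice and the lowest value of all in SS mouse 18, and the difference missed the threshold (1.42 ± 0.46, adjusted p = 0.0665). Col23a1, a transmembrane collagen, gave 1.18 ± 0.45 (adjusted p = 0.106). Col25a1 was at 76.1, 39.8 and 60.1 CPM in C and 56.0, 77.5 and 68.0 CPM in SS (0.20 ± 0.19, adjusted p = 0.537), with overlap.

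Col25a1 has 3 deposited transcript entries, and the division of the gene's counts among them varied between mice. The commonest held from 44.5% (SER mouse 19) to 87.5% (C mouse 2) of the counts, and the least common had 0 counts in 2 libraries and up to 165 in another. Of the 51 members, 8 have several entries. Col4a5 shows how far the division can swing: its first entry held 100% of the gene's counts in 3 mice, none in 7 and 50 to 76.1% in 2. Sums per gene are used everywhere else.

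Neighbouring RNAs were read in the same mice. SS mice 19 and 21 had 3761 and 5257 CPM of Malat1, a noncoding RNA held in the nucleus, against 505 CPM in SS mouse 18, 263 to 506 CPM in C and 988 to 1974 CPM in the runners. The sum of 5 nuclear noncoding RNAs (Malat1, Neat1, Meg3, Snhg11 and Miat) was 971, 9905 and 11449 CPM in SS mice 18, 19 and 21, 848 to 1334 CPM in C, 2449 to 3552 CPM in SES and 1648 to 2444 CPM in SER, and all 5 were called higher in SS. With log2 Malat1 CPM as a term in the fit, 0 members and 0% of all genes were called and the median log2 fold change was 0.11. Genes called higher in SS also had more G and C (median 54.99%) than those called lower (44.11%), and with an offset for G and C content and length 0 members and 0% of all genes were called, with a median of 0.57. The part of these in the result was not tested beyond those 2 fits.

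No marker of the cells known to make most of these matrix proteins was called higher in SS by edgeR or DESeq2. Endothelial markers (9 genes) summed to 128, 182 and 195 CPM in SS mice 18, 19 and 21 and 168 to 254 CPM in C, with 0 of 9 called higher and 1 lower. Mural cell markers (9 genes) summed to 93.1, 109.9 and 112 CPM in SS and 101 to 138 CPM in C, again 0 higher and 1 lower. Fibroblast and meningeal markers (12 genes) summed to 321, 183 and 154 CPM in SS and 166 to 259 CPM in C, with 0 higher and 1 lower. Of all genes tested, 5.21% were called higher and 4.63% lower, so 0 or 1 call in lists this short is near those shares. Fold changes were negative in 8 of 9 endothelial, 7 of 9 mural and 10 of 12 fibroblast and meningeal markers. All SS mice lay below all controls in 2, 3 and 4 of them, beside 14.2% of all genes. None of these markers was at 0 in any mouse, and SS mice 19 and 21 lay within or near the control range in each list.

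**Figure D4:**
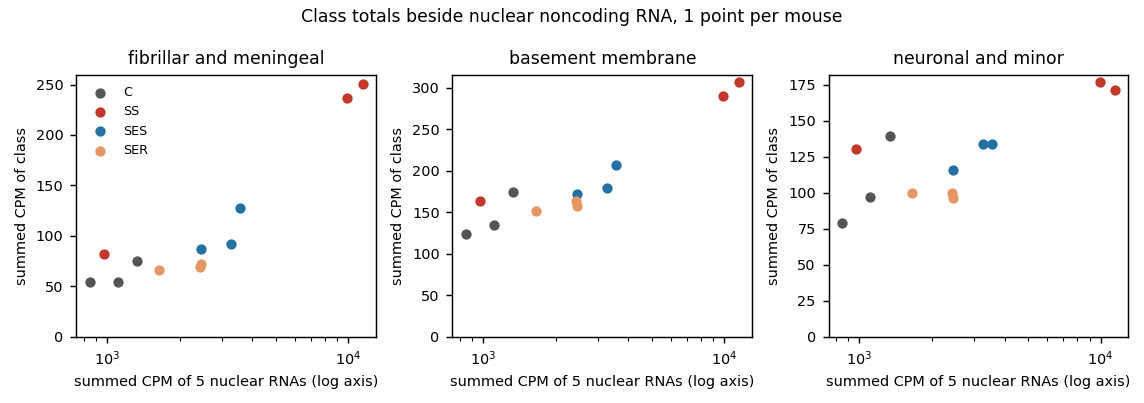
Summed CPM of each class (vertical axis, from 0) beside the summed CPM of 5 nuclear noncoding RNAs (horizontal log axis), 1 point per mouse and coloured by group. SS mice 19 and 21 are highest on both axes in all 3 panels, and SS mouse 18 lies with the controls at the low end of the horizontal axis.

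Genes that make and bind these proteins were counted from fixed lists. Of 27 genes for collagen synthesis and crosslinking tested, 4 (14.8%) were higher in SS and 0 lower: Bmp1, P3h3, Colgalt1 and Plod3. Over all genes tested, 5.21% were called higher and 4.63% lower. The median log2 fold change was 0.21 over the list and 0.02 over all genes. Bmp1, the protease that trims procollagen, was at 16.6, 10.4 and 14.8 CPM in C and 16.3, 69.2 and 73.4 CPM in SS (1.94 ± 0.41, adjusted p = 0.0239). P3h3, which modifies collagen prolines, was at 5.80, 6.21 and 6.10 CPM in C and 8.19, 22.2 and 19.3 CPM in SS (1.46 ± 0.29, adjusted p = 0.0223). Both had the same 2 SS mice highest. Serpinh1, the collagen chaperone, was not called (0.01 ± 0.24).

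Of 27 basement membrane partners and receptors tested, 4 (14.8%) were higher, beside 5.21% of all genes, and 0 lower, with a median of 0.27. They were Agrn, a heparan sulfate proteoglycan, the collagen receptor Itga10, and the matrix glycoproteins Smoc1 and Smoc2. Agrn was at 80.0, 66.6 and 66.7 CPM in C and 70.4, 172 and 169.8 CPM in SS (0.95 ± 0.24, adjusted p = 0.0321). The nidogens that link laminin to type IV collagen were not called (Nid1 -0.11 ± 0.30, Nid2 0.27 ± 0.47). Of 15 matrix proteases and inhibitors, 0 were called by edgeR, 1 was called higher by DESeq2 and 5 had an unadjusted p under 0.05 in edgeR, beside 28.2% of all genes, with a median of 0.20.

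Running was compared with SS next, and here SS mice are shared by both comparisons. In SES against SS, edgeR called 0 members, as it called 0% of all genes, and DESeq2 called 0. An unadjusted p under 0.05 was reached by 19 members, beside 9.01% of all genes. The median log2 fold change was -0.39. Smallest in p were Col22a1 (-1.34 ± 0.39), Col5a2 (-1.90 ± 0.56) and Col16a1 (-1.13 ± 0.35), each with an adjusted p of 0.524. Col22a1, a collagen of tissue junctions, was at 1.82, 4.23 and 3.57 CPM in SS and 1.76, 1.41 and 0.602 CPM in SES. All SES mice lay below all SS mice there, by a narrow gap between SES mouse 9 and SS mouse 18. That held for 2 members in all, Col22a1 and Col18a1, beside 5.92% of all genes.

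In SER against SS, edgeR called 0 members, beside 0.0481% of all genes, and 27 members had an unadjusted p under 0.05, beside 18.2%. DESeq2 called 13 members, all lower in SER, beside 1.67% of all genes called lower. The median log2 fold change was -0.93, and 46 of 49 were negative. Smallest in p was Col13a1, a transmembrane collagen of cell junctions, at 1.01, 0.941 and 1.44 CPM in SS and 0.237, 0.172 and 0.327 CPM in SER (-2.19 ± 0.44, adjusted p = 0.0844). All 3 SER values are 2 or 3 counts, at or under the floor, and the ratio of summed counts was 0.205 (counting interval 0.0826 to 0.444). Col7a1 (adjusted p = 0.0868) and Col24a1 (adjusted p = 0.0914) had 1 to 3 counts in each SER mouse, so their fitted folds depend on the prior count. Their ratios of summed counts were 0.0559 (0.0201 to 0.126) and 0.0499 (0.0100 to 0.153). Col13a1, Col7a1 and Col24a1 reached 10 counts in SS and SES libraries only. They are thus members only through groups where they were high, and their differences from SER are no support. In 13 members, these genes included, every SER mouse lay below every SS mouse, beside 8.1% of all genes. Lama5 and Lamc1 were among them, Lama5 at 3.86, 5.07 and 6.55 CPM and Lamc1 at 25.4, 24.8 and 24.7 CPM in SER. Without SS mouse 18, 25 members were called lower in SER than in SS, beside 9% of all genes. In SES against SS without that mouse 19 members were called lower, beside 5.43% of all genes, and 2 higher, beside 3.26%.

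By their labels SES and SER differ in the behavioural response to the wheel. Between them edgeR called 0 members, beside 0.0275% of all genes, DESeq2 called 0, and 9 members had an unadjusted p under 0.05, beside 3.72%. The median log2 fold change was 0.37 and 43 of 49 were positive. In 17 members every SES mouse lay above every SER mouse, beside 5.4% of all genes, and in 0 the reverse, beside 5.36%. By class these were 9 of 19 fibrillar and meningeal, 5 of 19 basement membrane and 3 of 10 neuronal and minor collagens. Smallest in p were Col13a1 (1.76 ± 0.44), Col4a5 (1.05 ± 0.30) and Col24a1 (2.78 ± 0.95), each with an adjusted p of 1. With so few counts in SER, the ratios of summed counts were 3.57 (1.64 to 8.88) for Col13a1 and 7.72 (2.40 to 39.5) for Col24a1. Both genes, and Col7a1, are members only through SS and SES libraries, so their place among the 17 is no support. Col4a5 was at 4.34, 4.95 and 5.42 CPM in SES and 2.84, 2.84 and 1.31 CPM in SER. Col4a2 and Lama5 were also among the 17, with log2 fold changes of 0.37 and 0.84. The sum of nuclear noncoding RNA was higher in every SES mouse than in every SER mouse, but by a margin of only 2448.9 CPM in SES mouse 9 against 2444.3 CPM in SER mouse 6, and Malat1 alone overlapped between the groups. With log2 Malat1 CPM as a term in the fit, 0 members and 0.0275% of all genes were called, as without it. The part of these RNAs was not tested beyond that fit. Choroid plexus RNA was higher in the SES group too, with Ttr at 822, 4699.7 and 2469 CPM against 36.5, 1080 and 63.3 CPM.

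Against C, SES gave 0 members called by edgeR, beside 0.179% of all genes, and 0 by DESeq2, with 8 members at an unadjusted p under 0.05, beside 16.2%. The median was 0.47. Every SES mouse lay above every control in 13 members, beside 12.8% of all genes, and below in 1 (Col3a1), beside 13.2%. The 13 include Col13a1 and Col24a1, which are members only through SS and SES libraries. Smallest in p were Col11a1 (1.65 ± 0.51, adjusted p = 0.166), Col4a5 (0.94 ± 0.30, adjusted p = 0.169) and Lamb2 (0.48 ± 0.17, adjusted p = 0.216). Col11a1 was at 4.59, 7.43 and 4.14 CPM in SES, all above the highest control.

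SER against C gave 0 members by edgeR, beside 1.19% of all genes, 0 by DESeq2, and 3 at an unadjusted p under 0.05, beside 18.6%. The median was 0.00 and the signs were divided, 24 positive and 25 negative. Smallest in p was Col3a1, at 0.473, 0.688 and 0.764 CPM in SER against 1.59, 1.93 and 1.80 CPM in C (-1.48 ± 0.38, adjusted p = 0.0754), with no overlap. Col13a1 (-1.36 ± 0.47) and Col9a2 (-0.71 ± 0.27) followed. In 6 members every SER mouse lay below every control, beside 12.7% of all genes, and in 2, Col6a1 and Col6a2, every SER mouse lay above, beside 12.6%. Col3a1 thus lay below C in all 9 restrained mice, called in none of the 3 comparisons, which share the same controls.

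Summed by class, the fibrillar and meningeal collagens stood at 61.1 ± 12.4 CPM (SD, n = 3) in C, 189.7 ± 93.5 in SS, 102 ± 22.5 in SES and 68.8 ± 2.92 in SER. Basement membrane genes stood at 144 ± 26.5, 253 ± 78.7, 186 ± 18.5 and 157 ± 5.77 CPM, and neuronal and minor collagens at 105 ± 31.1, 160 ± 25.7, 128 ± 10.3 and 98.6 ± 2.13 CPM, in the same order of groups. Per mouse, the fibrillar sum was 75.4, 54.0 and 53.9 CPM in C and 82.0, 237 and 250.1 CPM in SS. In the fibrillar and basement membrane sums the SD of the SS group is large because SS mouse 18 stood near the controls. In the neuronal and minor sum the C group had the largest SD. The sums include members that were high where Ttr was high. In SS mouse 18 the fibrillar sum of 82.0 CPM held 15.9 CPM of Col8a1 and 16.9 CPM of Col8a2. Col9a3 made up 52.1 of the 130 CPM neuronal and minor sum in that mouse, and 28.3 of 139 CPM in C mouse 2. The SER mice were the closest to each other in every class.

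A further set of members was ordered by Ttr, the transthyretin gene that choroid plexus epithelium expresses in bulk. Ttr was at 3546, 2.78 and 20.1 CPM in C, 5095, 5.72 and 12.1 CPM in SS, and as given above in SES and SER. These values fall into 6 libraries of 2.78 to 63.3 CPM and 6 of 822 to 5095 CPM, with a 13-fold gap. The high ones are C mouse 2, SS mouse 18, the 3 SES mice and SER mouse 19. Because of the gap no correlation over 12 libraries is given.

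For Col8a1, Col9a3, Col4a3 and Col17a1 all 6 high-Ttr libraries lay above all 6 low-Ttr ones, which makes 4 of 49 members tested, beside 0.488% of all genes. Col4a3 and Col17a1 reached 10 counts in high-Ttr libraries only. They are thus members only through the side where they were high, and their part in the count of 4 is no support. Col8a1, a short-chain collagen that forms hexagonal lattices, was at 2.92 to 15.9 CPM in the high libraries and 0.357 to 1.19 CPM in the low ones. Col9a3 was at 14.8 to 52.1 CPM and 5.14 to 11.6 CPM. Col4a3, the alpha 3 chain of type IV collagen, was at 0.566 to 2.41 CPM and 0.214 to 0.392 CPM, with 2 to 5 counts in each of the low libraries. Col17a1, a transmembrane collagen, was at 0.378 to 1.72 CPM and 0 to 0.158 CPM, where the low values are within the floor. Col8a2, the partner of Col8a1, overlapped through SER mouse 6 (6.31 CPM).

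**Figure D5:**
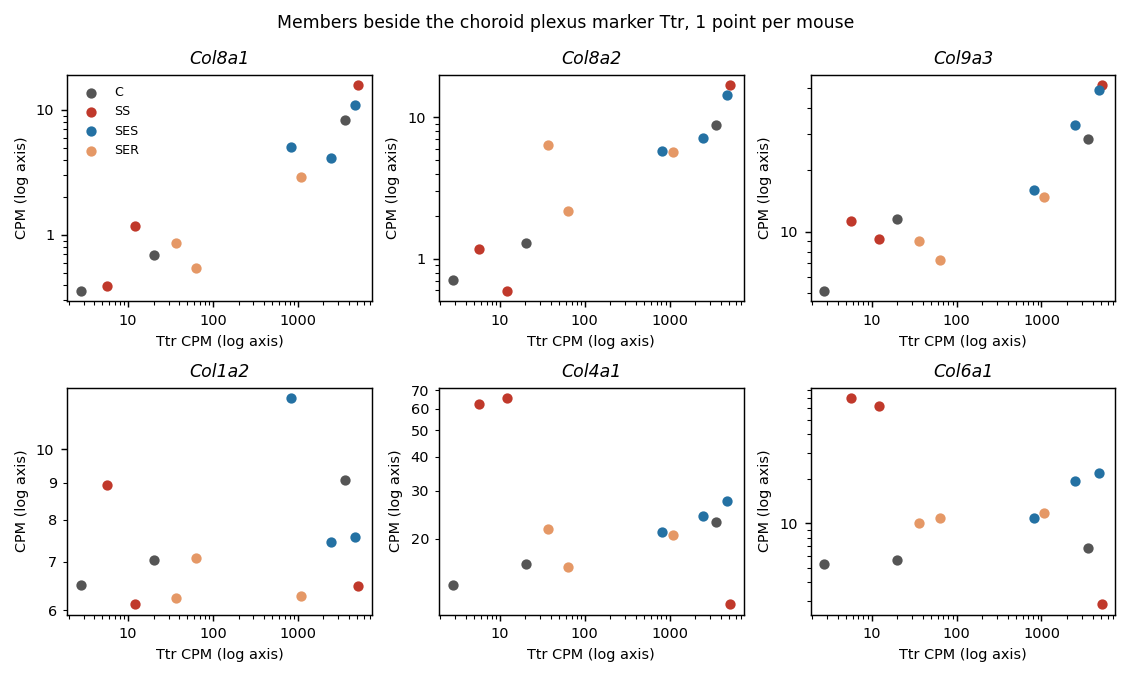
CPM of 6 members against Ttr CPM (both log axes), 1 point per mouse and coloured by group. Col8a1 and Col9a3 are higher in the 6 libraries of 822 CPM of Ttr or more than in the 6 of 63.3 CPM or less, Col8a2 overlaps by SER mouse 6, and Col1a2, Col4a1 and Col6a1 do not follow Ttr.

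Within the 6 high libraries, log2 CPM of Col17a1 correlated with that of Ttr (Pearson's r = 0.965, exact permutation p = 0.00278, Spearman's rho = 1, p = 0.00278). Adjusted over the 98 relations computed (49 members in 2 sets of 6 libraries) the p-values were 0.272 and 0.136, and r was 0.959 without the 2 libraries farthest from the median. Since Col17a1 is a member only through libraries high in Ttr, its relation is no support. Col9a3 gave r = 0.95 and rho = 0.886 (exact permutation p = 0.00972 and 0.0333, adjusted 0.38 and 0.653), and r = 0.928 without those 2 libraries. Col23a1 ran the other way, with r = -0.91 and rho = -1 (exact permutation p = 0.0181 and 0.00278, adjusted 0.38 and 0.136). Positive too were Col18a1 (r = 0.949), Col8a2 (0.898), Lama5 (0.865) and Lamb1 (0.862). Over the 49 members r was positive in 30 and negative in 19, with a median of 0.11. No member passed the adjustment in either set, and the low libraries gave a median r of -0.26. The Ttr difference between groups is uneven, and with log2 Ttr CPM as a term in the fit 17 members were called higher in SS against C, beside 6.93% of all genes. SS mice 19 and 21, the 2 highest in every member called in SS except Lama5, are both low in Ttr. Col4a1, Col4a2, Col5a1 and Col6a1 were thus highest where Ttr was near its lowest.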

How the data were processed

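Directional libraries (NEBNext Ultra II) were made from 1.3 µg of Trizol-extracted total RNA, per the labels' protocols. The authors deposited 1 table per mouse of estimated counts for 33299 RefSeq transcripts, whole numbers that were not normalized. TopHat and the build mm10 are named, per the submitters' processing notes. Which program counted, with which strand setting and annotation, is not given in the sources used here. Overlapping, antisense and near-identical genes are uncertain for that reason.

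Transcript values were summed per symbol, and all were whole, so rounding changed none. Genes were filtered with filterByExpr (minimum count 10), which left 14541, scaled with TMM factors (0.97 to 1.039) and tested with edgeR 4.0.16 (R 4.3.3) in 1 quasi-likelihood fit with 8 residual degrees of freedom, with SE derived from F. Every adjusted p without another tool named is from this fit. The method was tested on simulated data. Replicates of a group differed by more than sampling noise. Alternatives were DESeq2 1.42.0, other scalings and filters, covariates, left-out mice and, chosen after seeing the data, an offset for G and C content and length (mgcv 1.9.3) and 2 pairs of left-out mice. Correlations used log2 of CPM plus 1.

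Members, classes, marker and partner lists were chosen with earlier results of these data known. Named with values were, per comparison, up to 10 called members of smallest p per direction or, with fewer than 3 called, the 3 of smallest p, the 4 highest members per kilobase of each class, and a fixed set of chains. The rest were named after their values were seen. Of the 56 symbols, 40 matched a RefSeq start-site window.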

Additional observations from a re-analysis of the deposited data

How the results depend on the processing

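No paired analysis was possible because the groups share at most 1 mouse number, which names different mice. Percentages in brackets are the share of all genes called in either direction in the same fit. In SS against C, 14 members were called. With only those groups in the fit, with log2 Malat1 CPM as a covariate, with the G and C content and length offset, or without SS mice 19 and 21, 0 were called, while 28 were called without the libraries over 1000 CPM of Ttr (26%) and also 28 without C mouse 2 and SS mouse 18 (24.8%). Leaving out 1 mouse at a time gave 0 to 23. In SES against SS the count of 0 became 14 without the libraries over 1000 CPM of Ttr (3.08%), 24 without C mouse 2 and SS mouse 18 (9.71%), and 0 to 21 with 1 mouse left out. In SER against SS it became 13 with DESeq2, 23 without the libraries high in Ttr (16.2%), 26 without C mouse 2 and SS mouse 18 (17.5%), and 0 to 25 with 1 mouse left out. In SES against C it became 2 with only those groups (1.12%) and 12 without C mouse 2 and SS mouse 18 (6.31%). In SER against C it became 1 with only those groups (1.99%), 1 with the Malat1 covariate (0.701%), 3 without the libraries high in Ttr (7.92%) and 3 without C mouse 2 and SS mouse 18 (5.41%). The causes were not tested.

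Log2 fold changes that turned negative in SS against C with the Malat1 covariate were those of Col4a2 (-0.027), Col5a2 (-0.30), Col6a1 (-0.81), Col5a1 (-0.36), Col7a1 (-0.63) and Col12a1 (-0.20). Without SS mice 19 and 21 those of the same genes were -0.066, -0.43, -1.06, -0.55, -0.69 and -0.31. In SES against SS without those mice, Col5a2 (1.06) and Col16a1 (0.24) turned positive. TMM against DESeq2's size factors, the filters and the Ttr covariate left every count above within 1.5 times. Depth limits members with 1 to 3 counts a mouse, such as Col24a1, Col13a1 and Col7a1. The median over all genes moved by under 0.1 on the log2 scale in every setting.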
